A study of Mus musculus with 9 samples.

Results

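Long noncoding RNAs (lncRNAs) are transcripts that act as RNA, or through the act of being transcribed, without encoding a protein. The 9 described here are Meg3, Rian, Mirg, Malat1, Neat1, Miat, Snhg11, Pantr1 and 1700020I14Rik, a named set of lncRNA genes known from brain. They were found by matching the Ensembl mouse gene identifiers of the count table to gene symbols, and all 9 were present among the 55421 genes of the table. All 9 passed the filter on low counts, with 20032 genes tested in all. Snhg11 is the exception to the set's name in the annotation used, which types it as protein coding, whereas RefSeq lists it as a lncRNA.

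The RNA came from hippocampus of mice that express the red fluorescent protein tdTomato in neurons. Cells were freed with trypsin, and live tdTomato-positive cells were sorted and sequenced in bulk. There were 3 groups of 3 libraries: sham-operated wild-type mice (WT sham), wild-type mice given 1 mild controlled cortical impact as a model of mild traumatic brain injury (WT mTBI), and Tmsb4x conditional knockout mice given that impact too (CKO mTBI). Tmsb4x encodes thymosin beta 4, which binds actin monomers. The labels state no age, no sex, no time after injury, no Cre driver and no promoter for tdTomato, and sham-operated knockout mice were not among the groups, so an effect of the genotype without injury could not be separated from an effect of it after injury. The labels give 3 mice per group without saying whether any were pooled, and p-values measure the spread between these libraries.

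Library totals lay between 36452443 and 39590872 counts. The 9 lncRNAs together took between 0.818% and 1.15% of them. Several facts about the libraries bear on what follows. Tmsb4x had 61 to 105 counts in the libraries labelled WT sham, 11921 to 35061 counts in the WT mTBI libraries and 70 to 109 counts in the CKO mTBI libraries, so the sham libraries held as little of it as the knockout libraries and went against the label wild type. The 3 sham libraries were also much closer to each other than the injured ones, with a biological coefficient of variation (the spread of a gene between libraries beyond counting error) of 3.26%, against 19.6% in WT mTBI and 18.7% in CKO mTBI. The test used below shares a single spread between the 3 groups, so its p-values do not follow this difference. Whether the sham libraries vary as separate mice would was not tested, and the sham SDs given below carry that limit. WT mTBI replicate 1 stood apart: its Spearman correlation between exon length and a gene's deviation from its mean over the libraries was -0.29, against 0.0081 to 0.11 for each of the other libraries, and its mitochondrial share was the highest at 5.57%. WT mTBI replicate 3 was the only library with abundant Xist (835 CPM, against at most 0.892 CPM elsewhere) and near-absent Ddx3y, a Y-linked gene (0.0498 CPM). The 9 choroid plexus markers summed to 219 to 221 CPM in sham, 4403 to 6183 CPM in WT mTBI, and 235, 4994 and 4083 CPM in CKO mTBI replicates 1, 2 and 3. Most of the sham sum was Enpp2 alone, at a mean of 171 CPM. Ttr had means of 17.1 CPM in sham and 3700 CPM in WT mTBI, and 23.0, 3398 and 2748 CPM in CKO mTBI replicates 1, 2 and 3. The 8 neuronal markers, Snap25 and Camk2a among them, were all present and summed to between 9945 and 11941 CPM, while 7 astrocyte markers summed to between 4036 and 5158 CPM and 7 oligodendrocyte markers to between 5040 and 9231 CPM; the sorted material thus also held RNA of glial genes. In bulk RNA, fewer cells of a type and less RNA per cell cannot be told apart.

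Meg3, Rian and Mirg are transcribed in the same direction from the imprinted Dlk1-Dio3 domain, where they are expressed from the maternal chromosome. Meg3 is known for its abundance in neurons and its link to Polycomb repressive complex 2 (PRC2), Rian is the host of a large array of small nucleolar RNAs, and Mirg is the host of a cluster of neuronal microRNAs. Malat1 and Neat1 are adjacent genes for nuclear RNAs: Malat1 collects in nuclear speckles, which hold splicing factors, and Neat1 builds paraspeckles, nuclear bodies that grow under cellular stress. Miat (also called Gomafu) is a nuclear RNA of neurons that binds splicing factors through a repeated motif. Snhg11 is a small nucleolar RNA host gene, Pantr1 is transcribed divergently from the neuronal transcription factor gene Pou3f3, and 1700020I14Rik, which RefSeq names Oip5os1 and which is known as Cyrano, carries a site that directs the destruction of the microRNA miR-7.

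The sequences that give these RNAs their known roles are shown first, written 5′ to 3′. RefSeq promoter windows of 300 bases on GRCm38.p6 were found for 7 of the 9 genes, Neat1 and Pantr1 being named only. The promoter of Meg3 at chr12:109540746-109541045 on the plus strand is printed because it was the only window among the 8 of these 7 genes to hold either of the promoter motifs searched, the cyclic AMP response element TGACGTCA (both strands) and TATAAA (same strand). Its capitals mark the element TGACGTCA, which begins 57 bases upstream of the annotated start, and TATAAA, which begins 25 bases upstream.
Meg3 promoter: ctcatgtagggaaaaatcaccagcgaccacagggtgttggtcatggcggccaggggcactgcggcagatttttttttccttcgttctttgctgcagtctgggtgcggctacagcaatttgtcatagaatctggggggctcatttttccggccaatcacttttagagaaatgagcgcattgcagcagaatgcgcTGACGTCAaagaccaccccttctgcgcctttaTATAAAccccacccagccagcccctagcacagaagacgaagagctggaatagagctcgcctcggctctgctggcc
Over all 32851 promoter windows of the same length, 1.79% held TGACGTCA, 8.319% held TATAAA and 0.11% held both. A match describes the letters of the window and shows no binding.

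Malat1 lies on chromosome 19 at 5795690 to 5802672 and Neat1 at 5824708 to 5845478, both on the minus strand of GRCm38, each with 1 exon. Their 3′ regions share a U-rich element that is known to fold into a triple helix and to stabilise an RNA end that lacks a poly(A) tail. Windows of 110 bases are printed from the annotated transcripts, written with T, and the capitals mark the 3 blocks of at least 10 identical bases that both share in the same order.
Malat1 3′ element: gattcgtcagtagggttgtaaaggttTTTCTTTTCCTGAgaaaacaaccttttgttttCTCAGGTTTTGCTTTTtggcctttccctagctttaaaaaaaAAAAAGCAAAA
Neat1 3′ end: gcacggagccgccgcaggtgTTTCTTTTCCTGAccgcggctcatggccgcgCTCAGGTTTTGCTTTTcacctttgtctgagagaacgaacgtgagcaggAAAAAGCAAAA
The blocks were 13, 16 and 11 bases long, 40 shared bases in all. The Neat1 window ended at the last annotated base, and the Malat1 window was followed by another 292 annotated bases. The labels name total RNA as the material, and whether poly(A) selection or ribosomal RNA removal followed is not given in the sources used here.

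Miat lies on chromosome 5 at 112213228 to 112229395, on the minus strand. Its longest transcript, of 9163 bases, held the letters ACTAAC 11 times (same strand), 6 of them as TACTAAC, a sequence known from intron branch points. That is 1.2 sites per kb. Among 2191 lncRNA transcripts of at least 2 kb, 5 (0.23%) had as high a density and 34.0% had any site, while the longest transcripts of the other 8 genes held between 0 and 4 sites. A window of 170 bases (positions 4922 to 5091 of the transcript) is printed with its 4 sites in capitals.
Miat repeat window: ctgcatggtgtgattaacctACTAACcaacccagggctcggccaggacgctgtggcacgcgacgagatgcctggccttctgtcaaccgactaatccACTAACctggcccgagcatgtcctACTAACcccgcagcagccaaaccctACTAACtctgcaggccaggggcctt

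1700020I14Rik lies on chromosome 2 at 119594297 to 119607502, on the plus strand. Positions 2935 to 2959 of its transcript of 8300 bases pair with nearly the whole of miR-7. In the site, capitals mark the paired runs, of 13 and 8 bases, and in the microRNAs they mark the seed (bases 2 to 8).
1700020I14Rik miR-7 site: ACAACAAAATCACcaatGTCTTCCA
mmu-miR-7a-5p: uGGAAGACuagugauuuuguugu
mmu-miR-7b-5p: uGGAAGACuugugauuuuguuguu
The 8-base run pairs with bases 1 to 8 of miR-7a and the 13-base run with bases 11 to 23. With miR-7b, a longer RNA by 1 base, the second run is 14 bases. The seed match GTCTTCC alone occurred 2 times in this transcript, 2 times each in Meg3, Rian and Snhg11, 1 time each in Neat1 and Miat, and not in Mirg, Malat1 or Pantr1. The extended pairing was looked for in 1700020I14Rik only.

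Mirg lies on chromosome 12 at 109729764 to 109749460, on the plus strand, with 15 annotated microRNA genes within its span, Gm24321 among them on the minus strand. Of these, 4 hairpins fell wholly inside exons and were matched in RefSeq. Another 2 such hairpins fell in exons of Meg3 (109541001 to 109571726 on the same chromosome). Between them, the 6 hairpins gave 10 mature microRNAs with 10 different seeds. The 4 printed, 1 from each Mirg hairpin, have the seed in capitals and share none; the hairpins of Mirg outside its exons were not compared.
mmu-miR-134-5p: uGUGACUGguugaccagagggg
mmu-miR-485-3p: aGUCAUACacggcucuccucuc
mmu-miR-377-3p: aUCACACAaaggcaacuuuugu
mmu-miR-410-3p: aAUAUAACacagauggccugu
Reads on these hairpins also fall on host exons and were left out by the counting, so the files say nothing of their levels.

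Levels between genes were compared per kb of annotated exon. This length joins the exons of all annotated transcripts of a gene. For Rian it was 18234 bases against 8089 in the longest transcript, and for Mirg 7292 against 3822. For Neat1 and Malat1 the 2 lengths were the same. The order of the genes thus depends on this choice, and another length was not tested. Meg3 was the most abundant, with a mean over the 9 libraries of 313 CPM per kb, followed by Snhg11 with 245, Malat1 with 104, Miat with 70.9, 1700020I14Rik with 48.2 and Rian with 35.9 CPM per kb. Pantr1 with 7.46, Neat1 with 6.19 and Mirg with 4.02 CPM per kb were the lowest. Each gene was above the next in all 9 libraries, apart from Meg3 over Snhg11 (8 of 9 libraries, WT mTBI replicate 1 being the exception) and Pantr1 over Neat1 (6 of 9), so that the order of those pairs did not hold in every library. By CPM without the length, Meg3 ranked 3rd of the 20032 genes, Snhg11 20th, Malat1 124th, Miat 147th, Rian 149th, 1700020I14Rik 331st, Neat1 1734th, Pantr1 6113th and Mirg 6659th. The label of abundant RNAs thus fitted 6 of the 9 far better than Neat1, Pantr1 and Mirg.

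**Figure D1:**
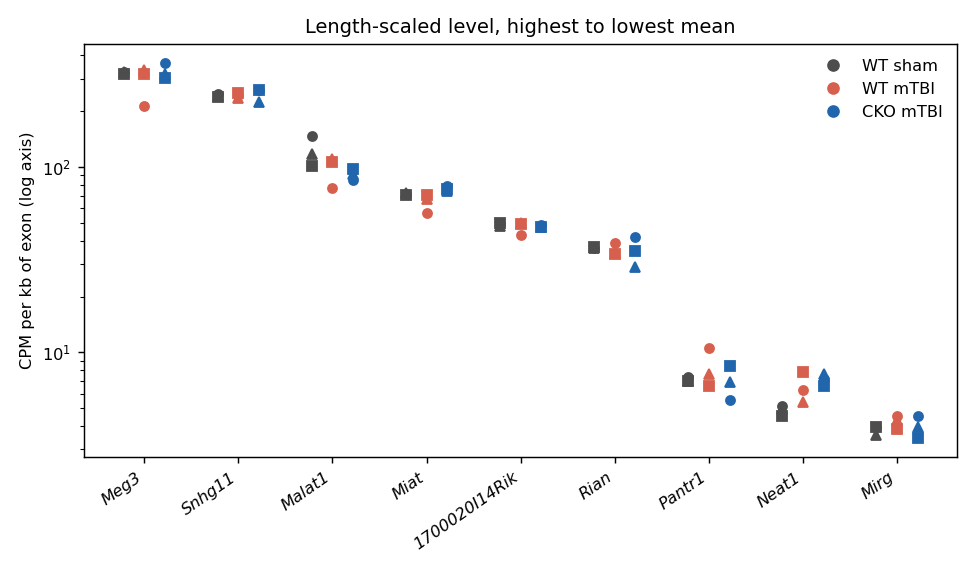
Level of each lncRNA per kb of exon (CPM per kb, log axis) in each library, coloured by group, with marker shapes for replicates 1 (circle), 2 (square) and 3 (triangle). Meg3 and Snhg11 lie highest, at means of 313 and 245 CPM per kb, and the 3 RNAs on the right lie between 3.44 and 10.6 CPM per kb.

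The comparison of WT mTBI with WT sham, called the injury comparison here, asked which RNAs differed after the impact. Because the sham libraries held Tmsb4x at the level of the knockout libraries, it also sets libraries low in Tmsb4x against libraries high in it, and injury and Tmsb4x level cannot be told apart in it. None of the 9 lncRNAs passed the test (edgeR quasi-likelihood test, adjusted p under 0.05 by Benjamini-Hochberg over all genes), where 0.3% of all genes tested did. At an unadjusted p under 0.05 there was 1 of the 9, Neat1, where 13.3% of all genes were. The groups did not overlap for 2 of the 9, Neat1 and Miat, where they did not for 23.9% of all genes. The median log2 change of the 9 was -0.03, beside 0.02 for all genes. In the comparison of CKO mTBI with WT mTBI, again 0 of 9 passed, against 0.015% of all genes. There 1 of the 9, Miat, had an unadjusted p under 0.05 (6.64% of all genes), Miat alone had groups that did not overlap (9.72% of all genes), and the median log2 change was 0.02 beside 0.00 for all genes. In the comparison of CKO mTBI with WT sham, 0 of 9 passed, against 0.0699% of all genes. The unadjusted p was under 0.05 for 2 of the 9, Neat1 and Malat1 (7.15% of all genes), the groups did not overlap for 3 of the 9, Neat1, Malat1 and Miat (17.2% of all genes), and the median log2 change was 0.02 beside 0.01. The WT mTBI libraries enter the injury and the knockout comparison and the sham libraries enter both comparisons with sham, so these are not independent views of the same RNA. Of the other tools, DESeq2 and limma voom with sample weights also called 0 of the 9 after injury and 0 between the injured genotypes, and each called 1, Neat1, in CKO mTBI against sham.

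**Figure D2:**
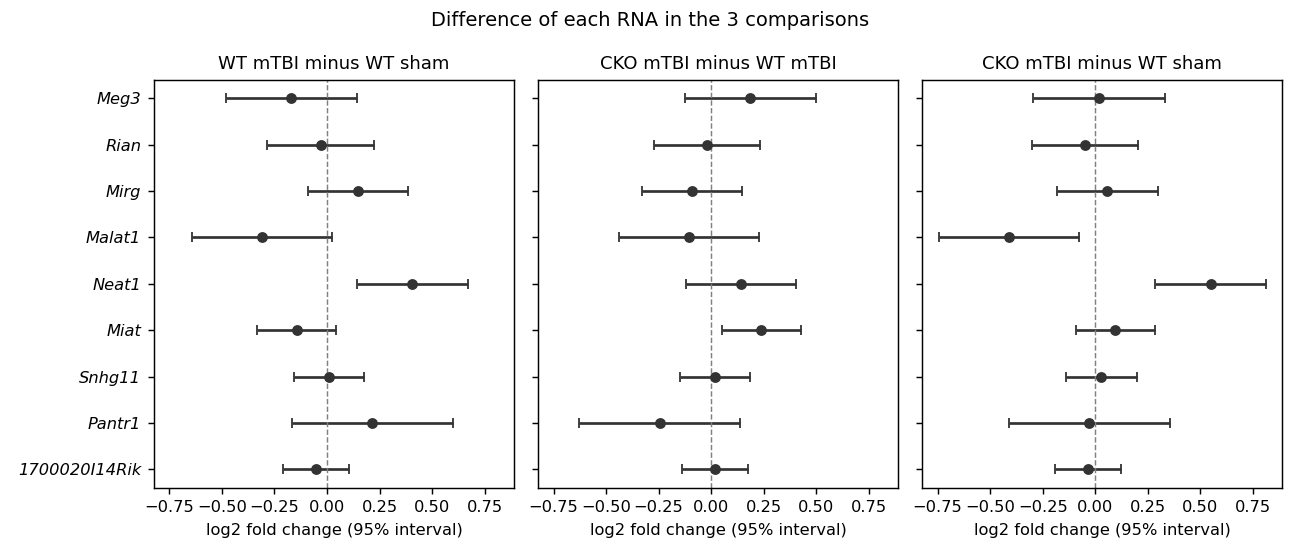
log2 fold change (x axis) of the 9 lncRNAs in the 3 comparisons, as edgeR estimates with 95% intervals. The intervals of Neat1 lie above 0 in both comparisons with WT sham, those of Malat1 and Miat miss 0 in 1 comparison each, and no gene passed the adjusted threshold.

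Neat1, the scaffold of paraspeckles, was the only one of the 9 that was higher in all 6 injured libraries than in all 3 sham libraries, a pattern that 3.64% of the 20032 genes had. The counts are per gene and do not tell its transcripts apart, and paraspeckles were not measured. Its level was 107, 94.5 and 104 CPM in WT sham replicates 1 to 3, 130, 163 and 112 CPM in WT mTBI, and 149, 138 and 160 CPM in CKO mTBI. The lowest injured library, WT mTBI replicate 3 at 112 CPM, lay just above the highest sham library at 107 CPM, while the CKO mTBI libraries were all well clear of sham. The WT mTBI mean was 135 ± 25.7 CPM against 102 ± 6.60 CPM in sham (SD, n = 3 each), 1.33-fold higher, with a log2 change of 0.41 (SE 0.12) that did not pass (edgeR, adjusted p = 0.185). In CKO mTBI the mean was 149 ± 11.0 CPM (SD, n = 3), 1.46-fold of sham with a 95% interval of 1.22 to 1.76, a log2 change of 0.55 (SE 0.12) that also missed the threshold (edgeR, adjusted p = 0.194). That second difference was called with DESeq2 (log2 0.54, adjusted p = 0.00909) and with limma voom and sample weights (0.58, adjusted p = 0.0174). It was also called without the count filter and in an edgeR fit of the 6 libraries alone. These were 4 of 23 alternative settings, and none of the others called it. The cause of this difference between fits was not tested. Without WT mTBI replicate 2, the highest of its group, the injury difference was 0.24 instead of 0.41. CKO mTBI and WT mTBI overlapped and differed by 0.14 on the log2 scale, with a 95% interval of -0.12 to 0.41 (edgeR, adjusted p = 0.769). Choroid plexus markers were higher in 5 of the 6 injured libraries. With their summed level as a covariate the Neat1 log2 changes were 0.41 in WT mTBI (edgeR, adjusted p = 0.575) and 0.55 in CKO mTBI (edgeR, adjusted p = 0.376) against sham. CKO mTBI replicate 1, whose markers summed to 235 CPM against at most 221 CPM in sham, held 149 CPM of Neat1, above every sham library. It was the only injured library with a sum near sham, the others holding at least 4083 CPM. The covariate thus nearly repeats the injury label, and its estimates lean on this 1 library. The part of these markers in the Neat1 difference was not tested.

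Malat1, the speckle RNA next to Neat1, went the other way. It stood at 1027, 704 and 816 CPM in WT sham, 537, 743 and 776 CPM in WT mTBI, and 594, 681 and 638 CPM in CKO mTBI. All CKO mTBI libraries lay under all sham libraries, and WT mTBI overlapped with sham. The mean of CKO mTBI was 638 ± 43.7 CPM and that of sham 849 ± 164 CPM (SD, n = 3 each), a log2 difference of -0.41 (SE 0.15) that did not pass (edgeR, adjusted p = 0.531). For WT mTBI, at 685 ± 130 CPM (SD, n = 3), the log2 change was -0.31 (SE 0.15, edgeR, adjusted p = 0.408). A large part of each difference rested on sham replicate 1: without it the log2 changes were -0.25 in CKO mTBI and -0.15 in WT mTBI. Leaving out WT mTBI replicate 1 likewise brought the injury difference to -0.16, and with the choroid plexus covariate it was -0.54 (edgeR, adjusted p = 0.557). CKO mTBI and WT mTBI overlapped, with a log2 difference of -0.10 and a 95% interval of -0.44 to 0.23.

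The spread of Malat1 in sham was itself out of the ordinary. The sham libraries agreed closely for most genes, with a median coefficient of variation of 1.93% over the 2334 genes with a mean of at least 100 CPM. Malat1 varied by 19.4%, the third highest of these genes. Only Tmsb4x, which is near 0 in sham and reaches the minimum through WT mTBI, and the ribosomal RNA gene CT010467.1, at 139, 120 and 88.7 CPM, were higher, and the next gene, Hspd1, varied by 7.96%. The other 8 lncRNAs varied by 0.671% to 6.49% in sham, with Neat1 the highest of them and Rian the lowest. In WT mTBI the Malat1 value of 18.9% was less unusual beside a median of 10.1%, and in CKO mTBI it was 6.86% beside 5.30%.

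Setting the neighbours against each other gave injured groups that did not overlap with sham. Neat1 alone already had this pattern and Malat1 went the other way, so the ratio is no separate support for it. The ratio of Neat1 to Malat1 counts was 0.105, 0.134 and 0.127 in WT sham, 0.242, 0.219 and 0.144 in WT mTBI, and 0.252, 0.202 and 0.25 in CKO mTBI. Every injured library had a higher ratio than every sham library, WT mTBI replicate 3 again lying nearest to sham. The log2 difference of the ratio was 0.70 between WT mTBI and sham and 0.95 between CKO mTBI and sham, and 0.24 between CKO mTBI and WT mTBI, where the groups overlapped. The ratios carry no test, and how many other pairs of genes have such a pattern was not counted.

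**Figure D3:**
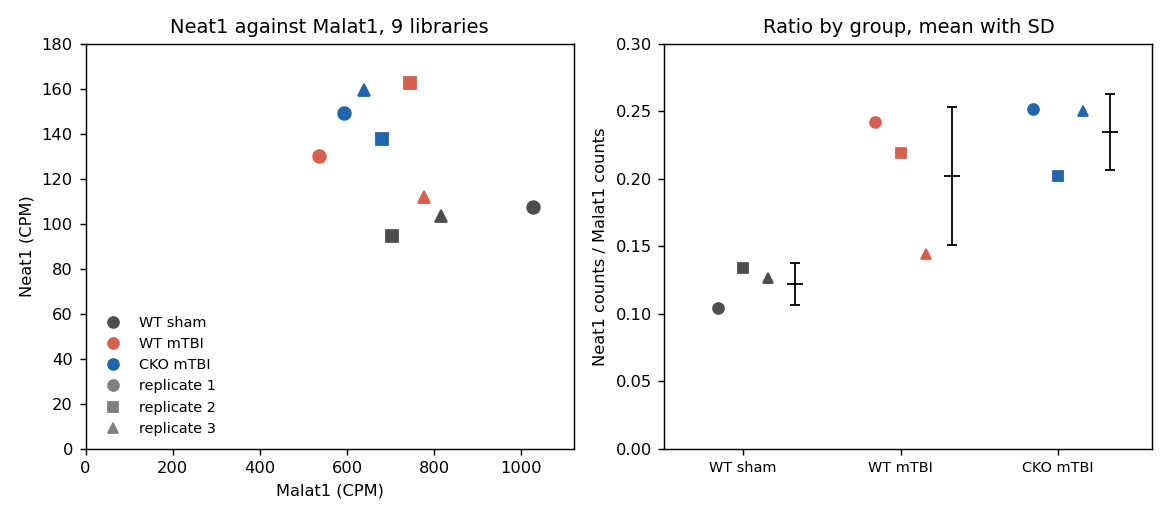
Left, Neat1 against Malat1 level (CPM) in the 9 libraries. Right, the ratio of Neat1 to Malat1 counts by group, with the mean and SD of 3 libraries. The sham libraries hold ratios of 0.105 to 0.134 and the injured libraries ratios of 0.144 to 0.252.

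Genes of the bodies that Neat1 and Malat1 belong to were described by lists. Of 21 genes for paraspeckle proteins, none passed the test in any comparison, and 2 had an unadjusted p under 0.05 in each comparison with sham, beside 13.3% of all genes for WT mTBI and 7.15% for CKO mTBI, so the list did not stand apart by this count. These were Sfpq, a core protein that Neat1 needs for its stability, and Cpsf6. Sfpq was 218 ± 6.06 CPM in sham, 186 ± 17.1 CPM in WT mTBI and 169 ± 10.4 CPM in CKO mTBI (SD, n = 3 each), with log2 differences from sham of -0.23 (edgeR, adjusted p = 0.268) and -0.36 (edgeR, adjusted p = 0.198). Of 22 speckle genes none passed either, with 3 at an unadjusted p under 0.05 in WT mTBI against sham, again beside 13.3% of all genes. Among these, Son, a scaffold of speckles, was 481 ± 58.8 CPM in WT mTBI against 586 ± 3.24 CPM in sham (SD, n = 3 each; edgeR, adjusted p = 0.205), and the splicing kinase gene Clk1 was 152 ± 25.9 CPM against 119 ± 2.82 CPM (edgeR, adjusted p = 0.259). The medians of both lists lay between -0.02 and 0.05 on the log2 scale in every comparison. Of 13 protein-coding genes nearest to the 9 lncRNAs, 12 were tested and none passed. In each comparison with sham, 2 had an unadjusted p under 0.05, beside 13.3% and 7.15% of all genes. The log2 change was positive for 6 of the 12 in WT mTBI and 4 in CKO mTBI. Frmd8, 4.22 kb from Neat1, was at 23.7 ± 1.21 CPM in sham, 24.2 ± 1.33 CPM in WT mTBI and 22.5 ± 2.70 CPM in CKO mTBI (SD, n = 3 each). Lbp, 42.8 kb from Snhg11, was 7.64 ± 0.203 CPM in sham and 25.7 ± 8.07 CPM in WT mTBI (SD, n = 3 each). In CKO mTBI replicates 1 to 3 it was 6.75, 22.6 and 22.9 CPM. The cause of this Lbp difference was not tested.

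**Figure D4:**
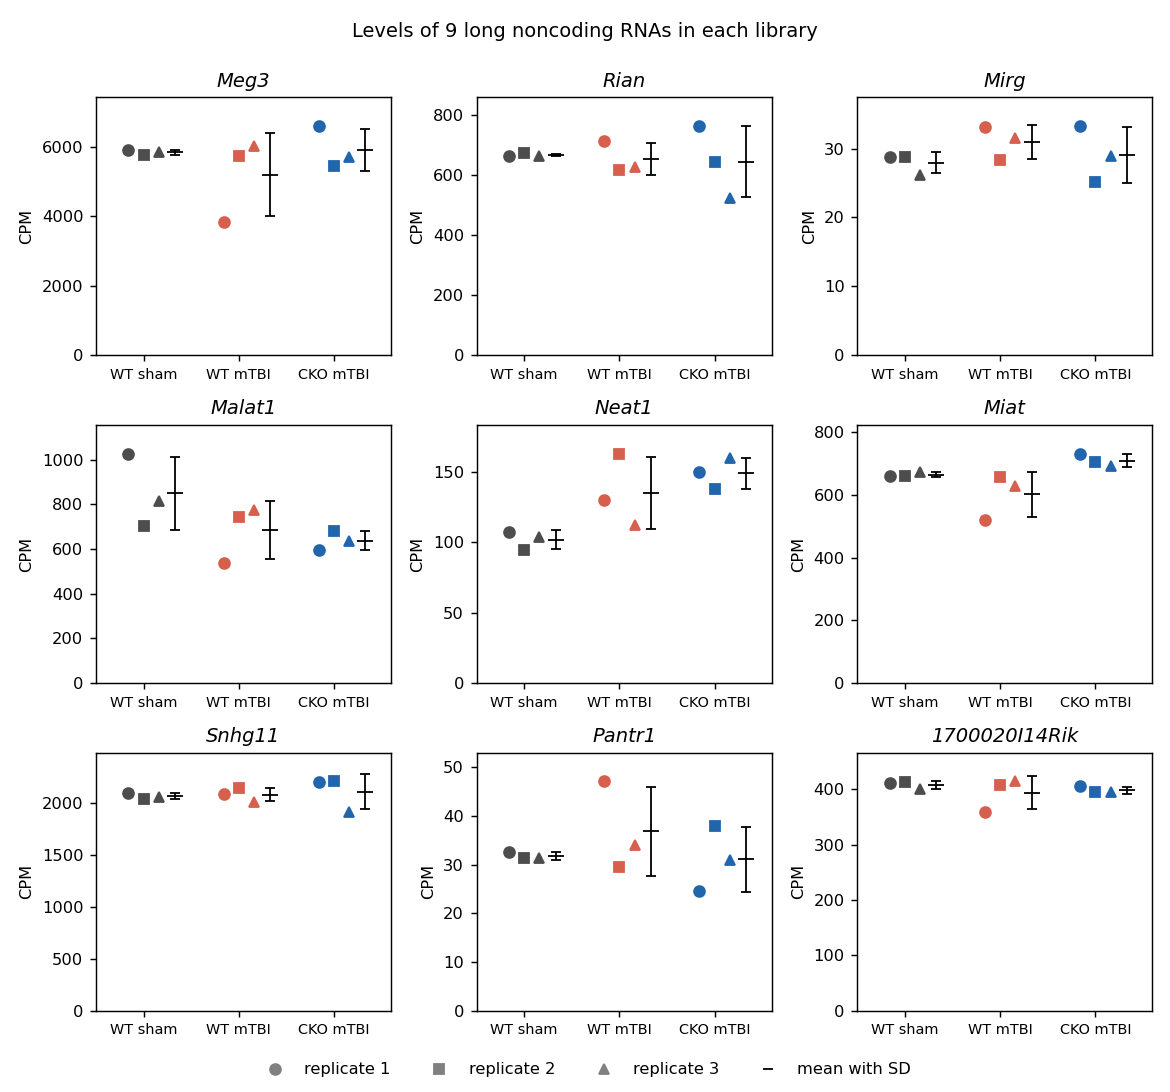
CPM of each lncRNA in each library by group, with the mean and SD of 3 libraries beside the points and axes from 0. Neat1 is higher in the 6 injured libraries (112 to 163 CPM) than in the 3 sham libraries (94.5 to 107 CPM), and WT mTBI replicate 1 is the lowest point for Meg3, Malat1, Miat and 1700020I14Rik.

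Meg3 was the most stable in sham among the 3 most abundant of the set, and a WT mTBI library was its exception. It stood at 5918, 5768 and 5855 CPM in WT sham, 3837, 5748 and 6016 CPM in WT mTBI, and 6598, 5454 and 5704 CPM in CKO mTBI. Apart from WT mTBI replicate 1, all libraries lay between 5454 and 6598 CPM. The WT mTBI mean was 5200 ± 1188 CPM and the sham mean 5847 ± 75.2 CPM (SD, n = 3 each), a log2 change of -0.17 (SE 0.14; edgeR, adjusted p = 0.626), and without WT mTBI replicate 1 it was 0.01. Between CKO mTBI (5919 ± 602 CPM; SD, n = 3) and WT mTBI it was 0.19 (edgeR, adjusted p = 0.754), and 0.01 without that library. Meg3 made up 46.4% of the counts of the 9 lncRNAs in WT mTBI replicate 1 and 53.0% to 57.4% in the other libraries. That library was also the one with the negative relation of gene length and deviation. The part of length or RNA quality in its Meg3 value was not tested.

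Rian and Mirg did not follow Meg3 into that library. Rian was 663, 671 and 663 CPM in WT sham, 713, 617 and 626 CPM in WT mTBI, and 762, 644 and 525 CPM in CKO mTBI, so that the sham libraries agreed within 0.671% (coefficient of variation) and the injured ones lay on both sides of them. Mirg was 28.8, 28.8 and 26.2 CPM in WT sham, 33.1, 28.3 and 31.5 CPM in WT mTBI, and 33.3, 25.1 and 28.9 CPM in CKO mTBI, and its groups overlapped in every comparison. The ratio of Rian to Meg3 counts was 0.186 in WT mTBI replicate 1 and between 0.092 and 0.118 in the other 8 libraries, and that of Mirg to Meg3 was 0.0086 there and between 0.0045 and 0.0052 elsewhere. The 3 RNAs, which are transcribed from a shared domain, thus kept close ratios in 8 libraries and different ones in the ninth. Neither gene passed in any comparison. For Rian the log2 changes were -0.03, -0.02 and -0.05 for injury, for CKO mTBI against WT mTBI and for CKO mTBI against sham, and for Mirg they were 0.15, -0.09 and 0.06. With the choroid plexus covariate they were 0.39, -0.18 and 0.21 for Rian and 0.52, -0.23 and 0.29 for Mirg, again without passing (edgeR, adjusted p of 0.326 or more for Mirg and 0.467 or more for Rian).

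The protein-coding genes of the region, the paternally expressed Dlk1, Rtl1 and Dio3 and the neighbouring Begain, did not pass in any comparison. Dlk1, a Notch-like signalling protein gene 77.7 kb from Meg3, was 22.2 ± 2.28 CPM in sham, 19.4 ± 4.49 CPM in WT mTBI and 21.7 ± 1.97 CPM in CKO mTBI (SD, n = 3 each). Dio3, which encodes the enzyme that inactivates thyroid hormone, was 6.86 ± 0.751 CPM in sham and 5.17 ± 0.971 CPM in CKO mTBI (SD, n = 3 each), a log2 difference of -0.41 with an unadjusted p of 0.0445 (edgeR, adjusted p = 0.68). Of 7 PRC2 genes none passed, and Ezh1, a catalytic subunit, was the only one at an unadjusted p under 0.05 (6.64% of all genes in that comparison), at 114 ± 12.6 CPM in CKO mTBI and 97.0 ± 9.40 CPM in WT mTBI (SD, n = 3 each; edgeR, adjusted p = 0.731).

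Other imprinted genes outside the domain were followed as a list of 30, of which 29 were tested. None passed. An unadjusted p under 0.05 was found for 8 of the 29 in WT mTBI against sham and for 8 in CKO mTBI against sham. These were larger shares than the 13.3% and 7.15% of all genes, on a list chosen with earlier results of these data known. The median log2 changes were -0.02 and 0.00. Kcnq1ot1 and Peg13 are also on the list of other lncRNAs used below. Cdkn1c, a cell cycle inhibitor gene, lay nearest to the threshold, at 5.83 ± 0.873 CPM in WT mTBI and 2.01 ± 0.155 CPM in sham (SD, n = 3 each), with a log2 difference of 1.53 (edgeR, adjusted p = 0.0501). In CKO mTBI replicates 1, 2 and 3 it was 2.56, 6.06 and 3.44 CPM, lowest in the library whose choroid plexus markers summed to 235 CPM, against 4994 and 4083 CPM in the other two. The part of these markers in the Cdkn1c difference was not tested. Ube3a, the ubiquitin ligase gene that neurons express from the maternal chromosome, was 72.8 ± 5.81 CPM against 94.1 ± 1.22 CPM (SD, n = 3 each), a log2 difference of -0.37 (edgeR, adjusted p = 0.0701).

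Miat was the only lncRNA of the 9 with an unadjusted p under 0.05 between the injured genotypes. Its level was 662, 660 and 673 CPM in WT sham, 522, 656 and 627 CPM in WT mTBI, and 732, 705 and 694 CPM in CKO mTBI. The groups did not overlap in any of the comparisons, with WT mTBI lowest and CKO mTBI highest, but the gaps to the nearest sham library were small. Between CKO mTBI (710 ± 19.8 CPM) and WT mTBI (602 ± 70.7 CPM; SD, n = 3 each) the log2 difference was 0.24 (SE 0.09), with an unadjusted p of 0.0171 that did not pass (edgeR, adjusted p = 0.731). Without WT mTBI replicate 1 it was 0.15. Against sham (665 ± 7.32 CPM; SD, n = 3) the log2 changes were -0.14 in WT mTBI (edgeR, adjusted p = 0.488), or -0.05 without WT mTBI replicate 1, and 0.10 in CKO mTBI (edgeR, adjusted p = 0.999). Of its exon bases, 30.4% are shared with other counted genes, mostly the antisense gene Gm26953, and featureCounts leaves out reads that fall on more than 1 gene, so the Miat level is a minimum. Genes for the 3 splicing factors listed as binding Miat (Sf1, Qk and Celf3) summed to 630 to 716 CPM over all libraries, and none had an unadjusted p under 0.05 in any comparison.

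Snhg11 and 1700020I14Rik varied least of the set over the 9 libraries, with coefficients of variation of 4.51% and 4.27%. Snhg11 was 2097, 2042 and 2058 CPM in WT sham, 2086, 2144 and 2012 CPM in WT mTBI, and 2204, 2208 and 1912 CPM in CKO mTBI. Its log2 changes were 0.01 after injury, with a 95% interval of -0.16 to 0.18, and 0.02 between the injured genotypes, with an interval of -0.15 to 0.19. For 1700020I14Rik the levels were 411, 414 and 400 CPM in WT sham, 359, 408 and 414 CPM in WT mTBI, and 406, 395 and 394 CPM in CKO mTBI, with log2 changes of -0.05 (interval -0.21 to 0.11) and 0.02 (interval -0.14 to 0.18). The intervals of both genes thus reached at most 0.21 on either side of no change, the narrowest of the set. The gene next to Cyrano, Oip5, was under 1 CPM in all 3 groups, at 0.593 ± 0.15 CPM in sham (SD, n = 3).

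Pantr1 was the most variable of the set among the injured libraries. It was 32.7, 31.3 and 31.3 CPM in WT sham, 47.1, 29.4 and 34.0 CPM in WT mTBI, and 24.6, 37.9 and 30.9 CPM in CKO mTBI, so that the highest and the lowest library were both injured and both replicate 1 of their group. The coefficient of variation was 2.46% in sham, 24.9% in WT mTBI and 21.4% in CKO mTBI. The log2 changes were 0.22 after injury (edgeR, adjusted p = 0.613) and -0.24 between the injured genotypes (edgeR, adjusted p = 0.752). Without WT mTBI replicate 1 the injury change was 0.00, and with the choroid plexus covariate it was -0.23 (edgeR, adjusted p = 0.824). Its divergent neighbour Pou3f3, which starts 0.925 kb away, was 114 ± 3.22 CPM in sham, 121 ± 7.63 CPM in WT mTBI and 107 ± 10.2 CPM in CKO mTBI (SD, n = 3 each), with a log2 difference of -0.18 between the injured genotypes (edgeR, adjusted p = 0.731).

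**Figure D5:**
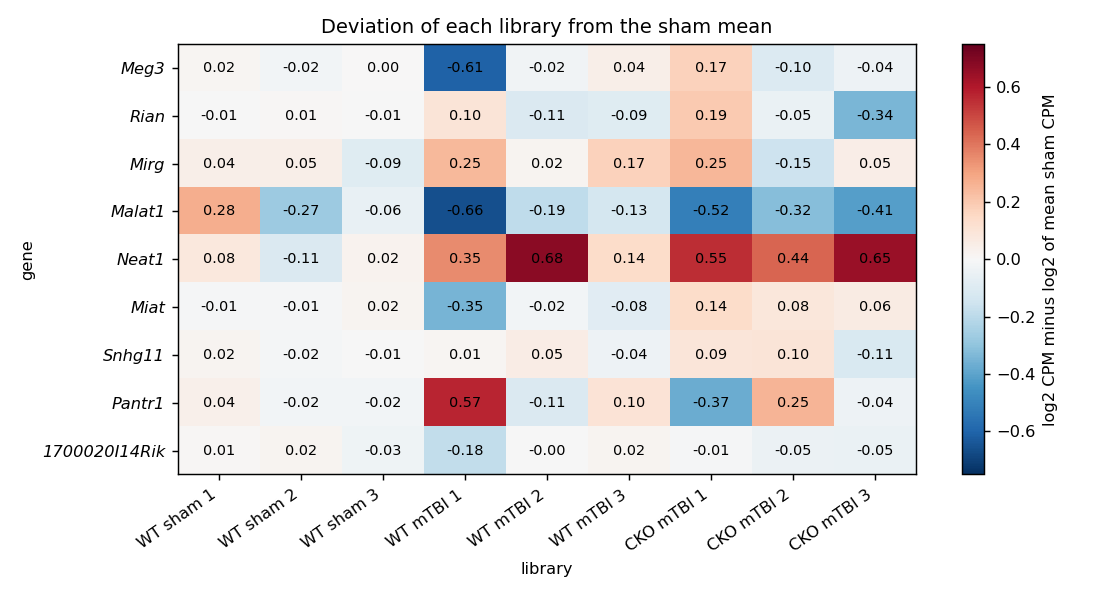
log2 CPM of each lncRNA in each library minus the log2 of its mean sham CPM (rows genes, columns libraries, red higher and blue lower). The sham columns lie within 0.11 of 0 apart from Malat1 (0.28 and -0.27 in replicates 1 and 2), Neat1 is positive in every injured column, and WT mTBI replicate 1 holds the lowest value of Meg3 (-0.61) and the highest of Pantr1 (0.57).

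Genes whose levels ran most like each lncRNA over the 9 libraries were found by Pearson correlation of log2 CPM among 11971 well-covered genes (mean count 200 or more). The points share libraries and, for several pairs, the 1 library that stood apart, so the values describe these libraries and carry no p. Meg3 ran closest to Peg3, a paternally expressed imprinted gene for a zinc finger protein on another chromosome (r = 0.997, Spearman's rho = 0.85). Without WT mTBI replicate 1, r was 0.979. Peg3 was 301 CPM in that library and 412 to 500 CPM in the other 8. The next gene was Dgkq (r = 0.99). Neat1 ran closest to the lncRNA genes 1700087I21Rik (r = 0.95, rho = 0.97) and E530011L22Rik (r = 0.94), neither of which leaned on WT mTBI replicate 1 (0.95 and 0.96 without it). The leading genes were Ap5m1 for Malat1 (r = 0.96), Abr for Miat (0.99), Wnt4 for Rian (0.97), Tcea2 for Mirg (0.96), Rras2 for Pantr1 (0.97), Ptprt for 1700020I14Rik (0.98, or 0.85 without WT mTBI replicate 1) and Pald1 for Snhg11 (0.91).

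Among the 9 themselves likeness was uneven. Meg3 and Mirg, host genes of the same domain, had r = -0.21 over the 9 libraries and 0.85 over the 8 without WT mTBI replicate 1, and Meg3 and Rian had -0.11 and 0.62. Meg3 and 1700020I14Rik went the other way, with 0.91 over 9 libraries and 0.40 over 8, as did Meg3 and Miat with 0.87 and 0.25. Which of the 9 looked alike thus differed with and without that library.

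Other lncRNAs of brain were followed as a list of 45 genes, 42 of them tested. None passed in any comparison. In WT mTBI against sham 9 of the 42 had an unadjusted p under 0.05, a larger share than the 13.3% of all genes, and the median log2 change was 0.00. In CKO mTBI against sham there were 6, also a larger share than the 7.15% of all genes. Between the injured genotypes there were 0, beside 6.64%. The lowest p belonged to Snhg14, the long host transcript over the Ube3a antisense region, which was 78.1 ± 13.2 CPM in WT mTBI and 115 ± 7.20 CPM in sham (SD, n = 3 each), a log2 difference of -0.55 (edgeR, adjusted p = 0.06). Kcnq1ot1, the imprinted antisense RNA that silences its domain, was 27.7 ± 3.29 CPM against 40.4 ± 0.799 CPM (SD, n = 3 each), a log2 difference of -0.54 (edgeR, adjusted p = 0.0651). In CKO mTBI both were also below sham, by a log2 difference of -0.44 (edgeR, adjusted p = 0.251) and -0.46 (edgeR, adjusted p = 0.22). The counting ignored strand, so reads of Snhg14 and its antisense partners, or of Kcnq1ot1 and Kcnq1, cannot be told apart where they overlap.

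Over all 2150 tested genes that the annotation types as lncRNA, 5 passed in WT mTBI against sham (0.233%), 0 between the injured genotypes, and 2 (0.093%) in CKO mTBI against sham. These are close to the shares of all genes, 0.3%, 0.015% and 0.0699%. The most abundant of the 5 was C230004F18Rik, which fell from 136 ± 1.10 CPM in sham to 79.7 ± 5.35 CPM in WT mTBI (SD, n = 3 each), a log2 change of -0.77 (edgeR, adjusted p = 0.037). The other 4, C920006O11Rik, 9430037G07Rik, M5C1000I18Rik and Gm29538, rose from at most 2.19 CPM in sham to at most 6.06 CPM in WT mTBI, and C920006O11Rik and 9430037G07Rik were the 2 that also passed in CKO mTBI. All of them were far below the abundant members of the set of 9. Over all genes, the edgeR calls of the injury comparison went from 60 to between 6 and 9 with 1 sham library left out. Leaving out a library also leaves fewer libraries for the test, and the cause of the drop was not tested.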

How the data were processed

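Bulk RNA sequencing of sorted hippocampal cells gave 9 libraries in 3 groups of 3, taken from the labels. The authors deposited unnormalized read counts, 1 row per Ensembl gene. Per the file headers, they counted with featureCounts 2.0.6 over exons of Ensembl 98 on GRCm38 without options for pairs, strand or multiple alignments. By that program's defaults each mate counts as a read, either strand counts, and reads that align to several places or fall on more than 1 gene are left out. The submitters' processing notes also name Trim Galore, HISAT2 and SAMtools, without versions. Symbols, positions and exon lengths came from GENCODE M21 (GRCm38), which matched 55240 of 55421 identifiers. Promoters and microRNAs came from RefSeq (GRCm38.p6).

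CPM, library-scaled counts with TMM factors, were computed from the deposited counts. Genes passing filterByExpr (20032) entered the two-sided robust quasi-likelihood F test of edgeR 4.0.16 (R 4.3.3) over all 9 libraries. Benjamini-Hochberg adjustment ran over all genes of a comparison, with calls at an adjusted p under 0.05. Correlations used log2 CPM with a prior count of 2. This test was also tried on simulated counts. Shared replicate numbers did not pair the libraries. Alternatives were DESeq2 1.42.0, limma 3.58.1 voom with sample weights, RLE or no scaling, other count filters, counts divided by 2, a fit of 6 libraries, no robust estimation, a replicate block, totals without mitochondrial genes and the 9 lncRNAs, and each library left out. Summing the sham libraries, leaving out WT mTBI replicate 1 and CKO mTBI replicate 1 together, and a choroid plexus covariate were added after seeing the data.

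The 9 genes and the gene lists were chosen with earlier results of these data known. All 9 genes are named in every comparison, with up to 4 genes of smallest p from each list, the nearest protein-coding genes, and the 2 genes most like each lncRNA among tested genes (mean count 200 or more). Of the 45 symbols of the list of other lncRNAs 44 were matched, Oip5os1 being 1700020I14Rik itself, and Dlx6os1 has 2 identifiers.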

Additional observations from a re-analysis of the deposited data

How the results depend on the processing

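With the injury and the knockout comparison, 0 of the 9 lncRNAs were called under every alternative run. In CKO mTBI against sham, 1 (Neat1) was called with DESeq2, limma voom with sample weights, no count filter (adjusted p = 0.0144, edgeR) and only the 6 libraries compared (adjusted p = 0.00852, edgeR), and 0 under the others; the cause was not tested. Neat1 kept a positive log2 change throughout, 0.49 to 0.60 in CKO mTBI against sham and 0.24 to 0.52 after injury. Shared replicate numbers did not pair the libraries (correlations of -0.089 to 0.073), and the replicate block left 0 of 9 called in every comparison, with 71, 3 and 13 genes called over all genes instead of 60, 3 and 14. Over all genes the injury comparison called 541 genes with DESeq2, 722 with voom, 303 without the filter, 252 with 6 libraries, 102 without robust estimation, 39 with the choroid plexus covariate, 589 without replicate 1 of both injured groups, 0 with the sham libraries summed, and 6 to 250 with 1 library left out. The knockout comparison called 19 with DESeq2, 10 without the filter, 6 with the covariate, 30 without both replicates 1 and up to 7 with 1 library left out. CKO mTBI against sham called 226, 279, 89, 125, 70, 389 and 0 with DESeq2, voom, no filter, 6 libraries, the covariate, both replicates 1 left out and the sham summed, and 2 to 138 with 1 library left out.

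Changes of sign concerned log2 changes that did not pass in either setting, and their cause was not tested. After injury, changes with 1 library left out ranged from -0.29 to 0.0088 for Meg3, -0.023 to 0.027 for Snhg11, -0.00031 to 0.34 for Pantr1 and -0.096 to 0.011 for 1700020I14Rik. With both replicates 1 left out, they were 0.0089 for Meg3, -0.00024 for Pantr1 and 0.011 for 1700020I14Rik. With the choroid plexus covariate, they were 0.020 for Meg3, 0.39 for Rian and -0.23 for Pantr1. With the stricter count filter, it was -0.0034 for Snhg11. Between the injured genotypes, changes with 1 library left out ranged from -0.16 to 0.11 for Rian, -0.20 to 0.0072 for Mirg, -0.015 to 0.084 for Snhg11 and -0.045 to 0.060 for 1700020I14Rik. With both replicates 1 left out, they were -0.077 for Meg3, -0.013 for Snhg11, 0.12 for Pantr1 and -0.059 for 1700020I14Rik. With the choroid plexus covariate, it was -0.013 for Snhg11. With voom weights, they were -0.021 for Snhg11 and -0.032 for 1700020I14Rik. In CKO mTBI against sham, changes with 1 library left out ranged from -0.068 to 0.069 for Meg3, -0.19 to 0.078 for Rian, -0.050 to 0.15 for Mirg, -0.0098 to 0.095 for Snhg11 and -0.20 to 0.12 for Pantr1. With both replicates 1 left out, they were -0.068 for Meg3, -0.050 for Mirg, -0.0041 for Snhg11 and 0.12 for Pantr1. With the choroid plexus covariate, it was 0.21 for Rian. With voom weights, it was -0.012 for Snhg11. Of the other values of the 27 log2 changes under alternatives, 571 kept their direction and their side of the threshold and 4, all of Neat1, passed it.

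Each of the 9 lncRNAs had many counts in every library, at least 940 even for Pantr1. The part of counting error in the spread between libraries was not tested. Mates counted singly make the counting error larger than the counts imply.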
